A study of Mus musculus with 11 samples.

Results

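In the library of liver mesenchyme taken 72 h after carbon tetrachloride (CCl4), 200 of 7310 cells carried at least 5 transcripts of the fibroblast (FB) genes Mfap4, Clec3b and Pi16, a share of 2.74% (95% exact binomial interval 2.37 to 3.14). These 200 cells were divided into 2 groups by which of the 3 genes they carried. The division was made after the values had been seen, and neither group was uniform. In 14 of the cells Clec3b and Pi16 together reached 5 transcripts, with or without Mfap4, and those cells, summed, held most of a list of FB genes. In 13 of the 14 there were few transcripts of the hepatic stellate cell (HSC) genes Reln and Lrat, and 1 of those 13, the shallowest, also lacked the FB gene Cd34. The other 186 cells had entered through Mfap4 alone. Summed over those cells, Serpinf1, Mgp and Sfrp1 stood far above the cells without the 3 transcripts, although fewer than 1 in 2 of the cells had a UMI of each, and most of the cells also carried Reln and Lrat.

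The cells came from adult male Pdgfrb-BAC-eGFP mice on a C57BL/6 background, in which GFP marks cells that use the Pdgfrb promoter, and were sorted as GFP+ CD45- CD102- cells. The 72 h library came from 3 pooled mice given 1 intraperitoneal injection of CCl4, an agent that kills centrilobular hepatocytes, and was made by the HSC isolation, which perfuses the liver with pronase and collagenase D before digestion ex vivo. It was compared with uninjured liver and with liver after 6 weeks of repeated CCl4, both by the HSC isolation, and with uninjured and 6 week liver by the portal fibroblast (PF) isolation, which minces the tissue before digestion with pronase, collagenase B and DNase. Each of these 5 libraries also pooled 3 mice, and the 5 together held 30999 cells. With 1 library per condition and isolation no difference could be tested, so every value below describes these libraries, and the 95% intervals cover counting error only.

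A cell entered the set when its raw unique molecular identifiers (UMIs, each standing for 1 captured transcript) of the 3 genes summed to at least 5, after cells with fewer than 300 genes or with over 30% mitochondrial UMIs had been left out. In the same library 6240 cells (85.4%) held no UMI of the 3 genes and 870 held 1 to 4. Levels are given as CPM, which is the UMIs of a gene summed over a group of cells and scaled to 1000000 UMIs of that group. The chosen cells were deeper than those without the transcripts, with a median of 15724 against 11012 UMIs per cell, and a count threshold favours deep cells. Of the 427 cells that scored as doublets in the library, 9 were among the 200 (4.5%), against 341 of the 6240 (5.46%).

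Both cell types belong to the PDGFRB+ mesenchyme of the liver. HSCs lie between the hepatocytes and the sinusoidal endothelium and store vitamin A, and after injury they become contractile cells that lay down matrix. FBs lie in the connective tissue around the portal tract. They are marked by Cd34, a surface sialomucin, and by secreted proteins such as Clec3b (tetranectin), Dpt (dermatopontin) and Pi16 (peptidase inhibitor 16), and Pi16 with Ly6c1, Dpp4 and Mfap5 marks FBs of the outer vessel wall in many organs. Reln encodes the secreted glycoprotein reelin, and Lrat the enzyme that esterifies retinol for storage, and both are HSC genes in the liver.

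The 3 genes did not contribute alike. Mfap4 (GRCm38 chr11:61485431-61488900, plus strand), which encodes a microfibril associated glycoprotein, had a UMI in 193 of the 200 cells and gave 71.9% of the UMIs that the selection counted. Clec3b (chr9:123150946-123157432, plus strand) had a UMI in 19 of the cells and Pi16 (chr17:29317680-29330593, plus strand) in 15. Mfap4 was the only one of the 3 genes seen in 179 cells, and 192 cells would have been chosen by Mfap4 on its own.

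Clec3b and Pi16 UMIs lay in few cells and were abundant there. Of all 7310 cells of the library, 7236 had none, 56 had 1, 4 had 2 and none had 3 or 4. The remaining 14 cells had 5 or more, with the lowest at 5, the next at 20, the median at 54 and the highest at 86. No cell lay between 2 and 5, so these 14 cells, 0.192% of the library (0.105 to 0.321), are called Clec3b/Pi16 cells here, and the other 186, 2.54% (2.20 to 2.93), are called Mfap4 cells. Of the Clec3b/Pi16 cells 13 had UMIs of both genes, and 7 had no Mfap4. This division was made after the values had been seen.

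**Figure D1:**
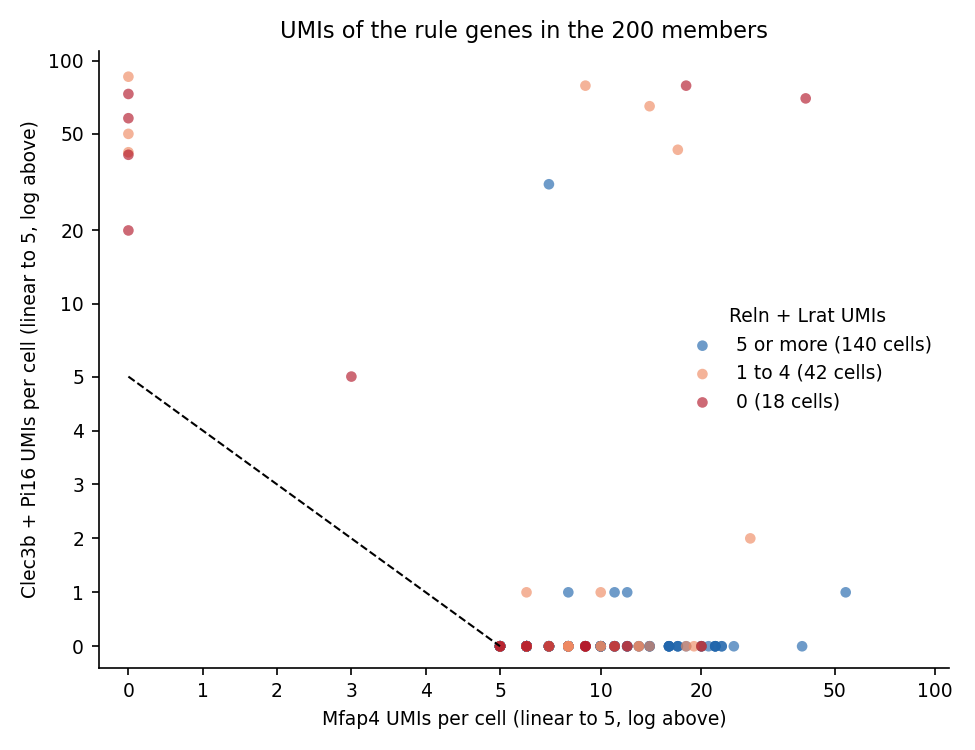
Each point is 1 of the 200 chosen cells of the 72 h library, placed by its Mfap4 UMIs (x) and its summed Clec3b and Pi16 UMIs (y), both axes linear to 5 and logarithmic above, and coloured by its summed Reln and Lrat UMIs; the dashed line is the threshold sum of 5. The 14 Clec3b/Pi16 cells lie at 5 or more on the y axis and the 186 Mfap4 cells at 2 or fewer.

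Around the threshold the values ran on without a step. The 52 cells with a sum of 4, the 35 with a sum of 5 and the 37 with a sum of 6 held Reln at 418, 453 and 359 CPM. Their Lrat was at 570, 500.4 and 449 CPM, and their Serpinf1 at 39.6, 34.7 and 67.1 CPM. Dpt stood at 302, 338 and 466 CPM in the same order.

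Reln (GRCm38 chr5:21884454-22344702, minus strand) was lower in the chosen cells than in the cells without the 3 transcripts, and was almost absent from uninjured FBs. Its level was 289 CPM (270 to 308) in the 200 cells and 589 CPM (583 to 594) in the 6240, a ratio of 2.04. In the 4048 FBs of the uninjured PF library, taken as cells with at least 4 summed UMIs of Cd34, Clec3b and Dpt, it was 0.388 CPM (0.167 to 0.764). The 2 groups of chosen cells stood apart, at 76.7 CPM (39.6 to 134) in the Clec3b/Pi16 cells and 299 CPM (280 to 319) in the Mfap4 cells.

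Lrat (chr3:82892579-82903973, minus strand) gave the same order. It was 402 CPM (380 to 424) in the 200 cells, with 70.3 CPM (35.1 to 126) in the Clec3b/Pi16 cells and 419 CPM (396 to 442) in the Mfap4 cells. The cells without the 3 transcripts held 999 CPM (992 to 1007) and the uninjured FBs 16.4 CPM (14.7 to 18.2). No interval of the Mfap4 cells reached that of either reference population, for either gene.

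Cell by cell, 75% of the chosen cells had a Reln UMI (68.4 to 80.8) and 85% an Lrat UMI, against 97.7% and 99.0% of the cells without the 3 transcripts. When every cell was thinned to 2000 UMIs, the Reln shares became 37% and 67.2%, and those of Lrat 46.5% and 82.4%. The uninjured FBs, which should lack both transcripts, had a Reln UMI in 0.148% and an Lrat UMI in 4.45% of cells at a median of 4971 UMIs per cell, and 0.0513% and 2.26% after thinning. The Mfap4 cells held 4.97 ± 5.55 Reln UMIs and 6.96 ± 6.18 Lrat UMIs each (mean and SD over 186 cells of 1 library).

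The summed Reln and Lrat UMIs of a Mfap4 cell had a median of 9, and 139 of the 186 cells had 5 or more, 36 had 1 to 4 and 11 had none. Per 10000 UMIs their median was 6.10, between 15.8 in the cells without the 3 transcripts and 0 in the uninjured FBs. In the uninjured HSC library the median of the cells without the 3 transcripts was 26.2.

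Among the 14 Clec3b/Pi16 cells, 13 had at most 1 Reln or Lrat UMI, and 7 had none. Those 13 cells together held 4 Reln UMIs (27.96 CPM, 7.62 to 71.6) and 2 Lrat UMIs (13.98 CPM, 1.69 to 50.5). The part of free RNA in the Reln and Lrat levels of either group of chosen cells was not tested. The remaining cell had 8 Reln, 9 Lrat, 40 Colec11 and 10 Lhx2 UMIs beside 10 of Clec3b and 21 of Pi16, and it was the only one of the 14 scored as a doublet. Another of the 14 stood apart by its FB genes, the shallowest at 3429 UMIs, with 5 Clec3b UMIs and none of Pi16, Cd34, Mfap5 or Ly6c1, beside 17 of Dpt, 32 of Mgp and 40 of Col1a1.

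**Figure D2:**
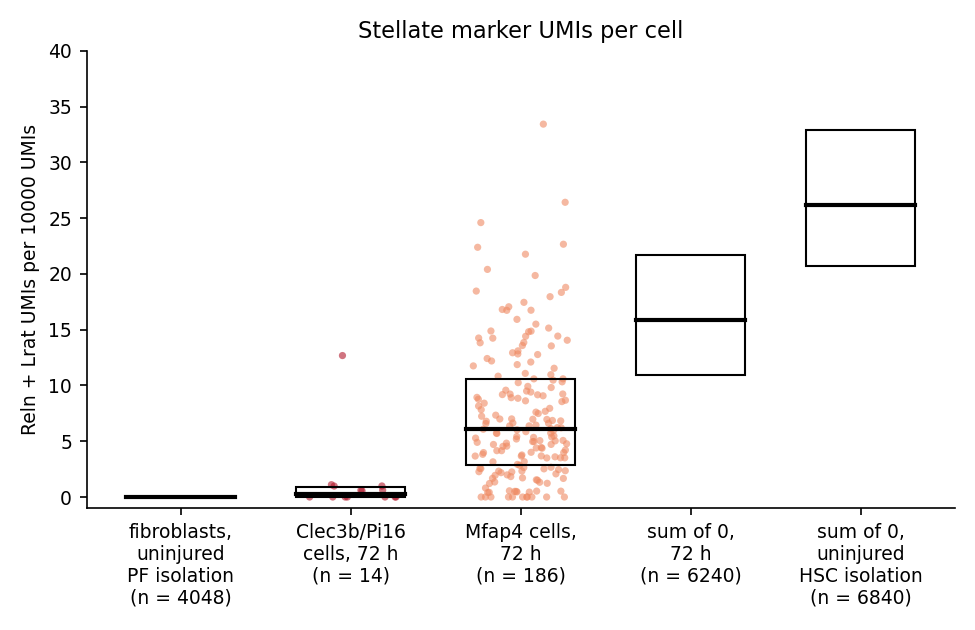
Summed Reln and Lrat UMIs per 10000 UMIs of each cell (y) in 5 populations (x); boxes span the quartiles, thick lines are medians, and points are the single Clec3b/Pi16 and Mfap4 cells. The median of the Mfap4 cells, 6.10, lies between 0 in uninjured fibroblasts and 15.8 in cells of the 72 h library with a sum of 0, and 1 of the 14 Clec3b/Pi16 cells lies far above the other 13.

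Serpinf1 (GRCm38 chr11:75409769-75422701, minus strand), which encodes the secreted serpin PEDF, is an FB gene that the selection did not use. It had at least 1 UMI in all 14 Clec3b/Pi16 cells, with the lowest at 1, the median at 5 and the highest at 17 UMIs, for a level of 499 CPM (394 to 622). In the Mfap4 cells it stood at 146 CPM (133 to 160) with a UMI in 44.6% of cells, so that a majority had none. The cells without the 3 transcripts held 2.32 CPM (1.98 to 2.71) and 2.21% of them had a UMI, while uninjured FBs held 1903 CPM and 95.4% had one. Thinned to 2000 UMIs, the shares were 57.1% of the Clec3b/Pi16 cells, 19.9% of the Mfap4 cells, 0.385% of the cells without the 3 transcripts and 85.7% of the uninjured FBs.

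Taken over the whole transcriptome, 213 of 5741 genes (3.71%) were at least 2-fold higher in the 200 cells than in the 6240 with no transcript of the 3 genes, and 232 (4.04%) were at least 2-fold lower, counting genes with 20 CPM or more in the higher group. A list of 18 FB genes (the selection genes left out) had 14 higher and 0 lower of 17 that could be compared, with a median log2 difference of 2.35. A list of 18 HSC genes had 0 higher and 12 lower of 17, with a median of -1.31, while the median of all genes compared was -0.09. The cells had been selected on FB transcripts in this same library, so these counts describe the selection. Which direction held more genes turned with the thresholds, with 123 higher and 81 lower at 3-fold, and 1950 and 802 with no CPM minimum.

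The 10 largest ratios upward, among genes of at least 50 CPM, were those of Ly6c1, Mfap5, Mgp, Pcolce2, Serpinf1, Igfbp6, Sfrp1, S100a16, Pdlim3 and Ildr2, from 476-fold for Ly6c1 to 26.9-fold for Ildr2. The first and second belonged to the 14 Clec3b/Pi16 cells, which held 172 of the 174 Ly6c1 UMIs and 348 of the 353 Mfap5 UMIs. Downward, the largest were those of Ntm, Smagp, Mapt, Rgs5, Ggt5, Mest, Fcna, Itgb3 and Tmem56, from 18.9-fold for Ntm, a neural adhesion molecule, to 5.79-fold for Tmem56. Rgs5, a regulator of G protein signalling found in HSCs and pericytes, stood at 105 CPM against 779 CPM.

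With the Clec3b/Pi16 cells set aside, the Mfap4 cells still differed from the cells without the 3 transcripts in 196 of 5725 genes higher (3.42%) and 224 lower (3.91%). Of the FB list, 9 of 13 compared genes were higher and none lower. These were Serpinf1, Pcolce2, Col15a1, Dpt, Fbln2, Cd34, Fbln1, Gpx3 and Gsn. Pcolce2, which enhances the processing of procollagen, was at 58.9 CPM (50.7 to 68.1) against 1.07 CPM (0.843 to 1.34). Dpt was at 621 CPM (594 to 649) against 39.3 CPM (37.9 to 40.8), and Gsn, the actin severing protein gelsolin, at 304 CPM against 127 CPM. The list was met only in part, because Mfap5 at 1.62 CPM, Igfbp6 at 9.06 CPM and Dpp4 at 0 UMIs stayed low in the Mfap4 cells.

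By ratio the 10 highest genes in the Mfap4 cells were Mgp, Serpinf1, Pcolce2, Sfrp1, Pdlim3, S100a16, Ildr2, Adamtsl1, Gas6 and Col15a1, from 97.7-fold to 17.0-fold. Mgp, the matrix Gla protein that inhibits calcification, was at 121 CPM, with an interval of 77.2 to 125 for its ratio, and its UMIs lay in 47 of the 186 cells. Sfrp1, a secreted Wnt antagonist, was 47.1-fold higher (38.8 to 57.5), and Gas6, a ligand of TAM receptors, 18.9-fold higher (17.5 to 20.4). Igfbp4, which binds insulin-like growth factors, was at 1470.5 CPM against 233 CPM and had a UMI in 185 of the 186 cells. The growth factor gene Igf1 was at 185 CPM against 38.4 CPM. In a list of growth factor and Wnt genes 4 of 6 were thus higher, and Hgf, the hepatocyte growth factor that HSCs make, was lower at 123 CPM against 396 CPM.

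The HSC list in the Mfap4 cells had 0 of 17 genes higher and 11 lower. Colec11, a collectin of HSCs, was at 619 CPM (592 to 648) against 2325 CPM, and Lhx2, a transcription factor that holds HSCs quiescent, at 255 CPM (238 to 274) against 564 CPM (558 to 569). Ecm1 was at 321 against 1023 CPM and Pth1r at 249 against 775 CPM. Those within 2-fold included Reln itself, Des, Hand2, Rspo3 and Adamtsl2. Des, the intermediate filament desmin, was at 426 against 437 CPM, and Hand2, a transcription factor of the HSC lineage, at 337 against 471 CPM.

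Uninjured FBs held these HSC genes at lower levels still, with Lhx2 at 3.97 CPM and Colec11 at 52.9 CPM. The FB transcription factors Ebf1 and Osr1 were at 482 and 250.1 CPM in uninjured FBs, but at 5.18 and 7.44 CPM in the Mfap4 cells. Prrx1, a mesenchymal homeobox gene, was the only 1 of 9 compared transcription factors that was at least 2-fold higher in the Mfap4 cells than in the cells without the 3 transcripts, at 67.0 against 17.0 CPM.

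Most collagen genes, and fewer of the other matrix and contractile genes, were higher in the Mfap4 cells than in the cells without the 3 transcripts. Of 11 genes for fibrillar collagens and their cross-linking 8 were higher, of 11 injury and contractile genes 5, of 10 elastic and microfibril genes 4, and of 7 small leucine-rich proteoglycans 2, with none lower in any of these lists. Col1a1 was at 5683 against 1768 CPM and Col3a1 at 7918 against 3518 CPM, and Lox, the lysyl oxidase, at 213 against 69.3 CPM. Acta2, the actin of smooth muscle and of activated HSCs, was at 2466 CPM (2411 to 2522) against 711 CPM (705 to 717). Eln, which encodes elastin, was 5.84-fold higher and Cthrc1, a gene of collagen producing cells, 4.05-fold higher, whereas Postn and Sparc were within 2-fold. Fibromodulin (Fmod) was at 208 against 15.9 CPM, while its relatives Dcn, Lum, Bgn and Prelp were within 2-fold.

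The listed collagen, injury and contractile genes were within 2-fold of their levels in activated cells elsewhere in the library. Not all other matrix and smooth muscle genes were. Clustering gave 13 clusters, and after the one that held most Mfap4 cells, the next most lay in cluster 4, which was led by Ankrd1, Tnnt2, Cthrc1, Fam180a and Acta2. Its 485 cells with none of the 3 transcripts held Acta2 at 1896 CPM, Col1a1 at 3593 CPM and Col3a1 at 5839 CPM. Compared with them, the Mfap4 cells had 184 of 5546 genes at least 2-fold higher (3.32%) and 66 lower (1.19%). None of the 11 collagen and cross-linking genes and none of the 11 injury and contractile genes reached 2-fold, with Col1a1 at a ratio of 1.58 and Acta2 at 1.30, whereas Eln was 3.47-fold higher. Ankrd1, Cthrc1 and Acta2 are on the injury and contractile list and were among the leading genes of cluster 4. Their high levels in its cells thus describe the clustering, and 33 of the Mfap4 cells lay in cluster 4 themselves.

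Several FB and growth factor genes did reach it in that comparison. Of the FB list 9 of 13 genes were again higher and none lower, with Serpinf1 at 146 against 4.57 CPM and Dpt at 621 against 89.6 CPM. Mgp was 77.0-fold, Sfrp1 48.3-fold, Gas6 7.99-fold and Igfbp4 5.61-fold higher than in the cluster 4 cells. Other secreted genes mostly did not, with 1 of 7 small leucine-rich proteoglycans, 2 of 7 complement and secreted regulators and 0 of 6 chemokines and cytokines higher. Eln, Fbn2, Fbln1 and Fbln2 were the 4 of 10 elastic and microfibril genes that were higher. The HSC list had 5 of 17 genes lower, namely Lrat, Lhx2, Hgf, Rgs5 and Fcna, and Reln was at 299 against 539 CPM.

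The Mfap4 cells were not uniform, and many FB genes, though not all, were higher in those with fewer Reln and Lrat UMIs, which the selection had not used. Between the 47 cells with under 5 such UMIs and the 139 with 5 or more, 172 of 5773 genes were at least 2-fold higher in the first (2.98%) and 185 lower (3.2%). Of the FB list 7 of 16 genes were higher and none lower, namely Serpinf1, Cd34, Fbln2, Col15a1, Igfbp6, Pcolce2 and Thy1. The other 9 were within 2-fold, and Gsn, Lum and Dcn of these were on the lower side, Dcn at 3848 against 7468 CPM. Dcn was not particular to FBs. It was at 27510 CPM in the cells of the uninjured HSC library without the 3 transcripts and 15442.5 CPM in uninjured FBs. Of the HSC list, with Reln and Lrat left out, 0 of 15 genes were higher and 8 lower.

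By narrower ranges the genes differed in their order. In the 139 cells with 5 or more of these UMIs Serpinf1 was at 96.7 CPM (84.5 to 110), in the 36 with 1 to 4 at 315 CPM (271 to 364) and in the 11 with none at 266 CPM (190 to 362). Dpt was at 531, 900.4 and 951 CPM in the same order, and Igfbp4, of the growth factor list, at 1313, 2033 and 1768 CPM. Gsn was at 311, 294 and 226 CPM and Lum at 1739, 1205 and 1343 CPM, so these genes of the FB list did not follow Serpinf1 and Dpt. Lhx2 stood at 297, 126 and 106 CPM, and Colec11 at 732, 269 and 213 CPM, which is the order of Reln and Lrat.

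Mgp was highest in the middle range, at 430 CPM against 42.4 and 160 CPM at either side. Col1a1 and Acta2 differed less between the ranges, with Col1a1 at 5510, 6243 and 6242 CPM and Acta2 at 2392, 2789 and 2386 CPM. Even the 139 cells with 5 or more Reln and Lrat UMIs held Serpinf1 and Dpt well above the 2.32 and 39.3 CPM of the cells without the 3 transcripts. All 8 Mfap4 cells scored as doublets were among these 139, and the part of doublets in their joint levels was not tested beyond leaving them out, which gave 273 CPM of Reln over the remaining chosen cells.

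**Figure D3:**
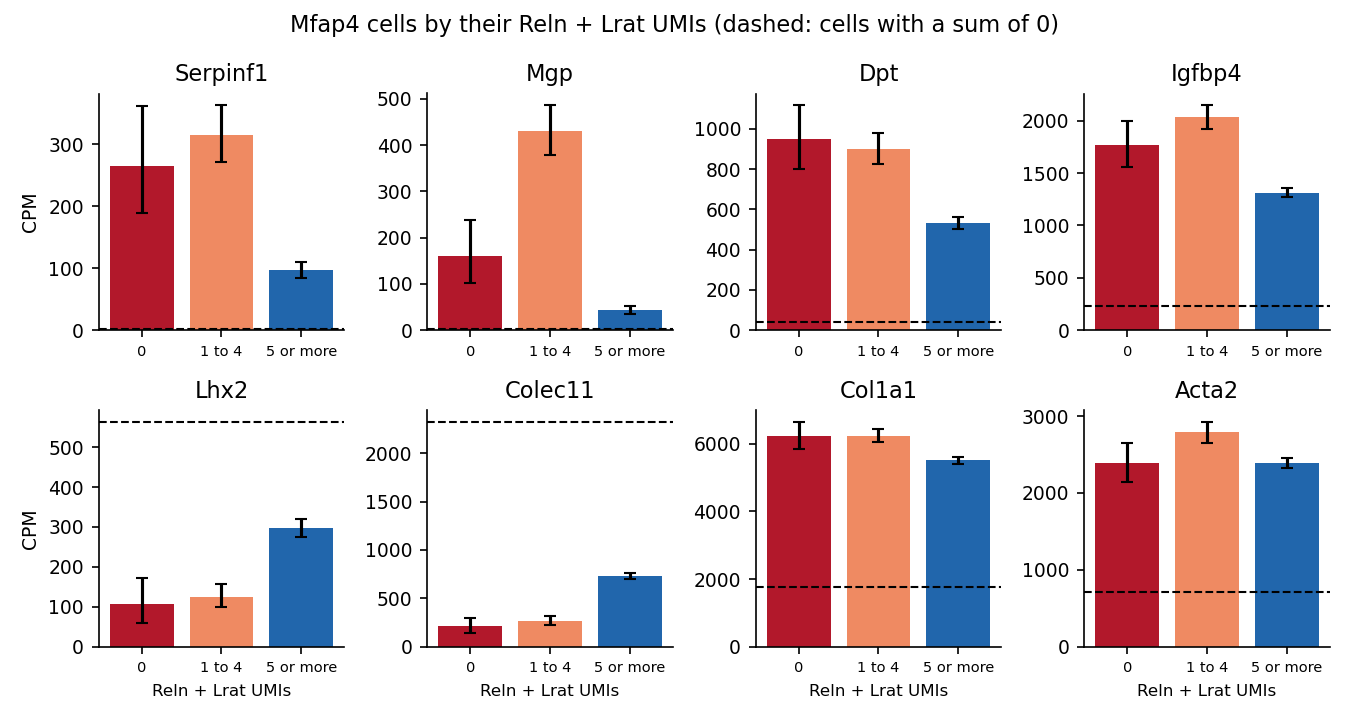
CPM (y, linear from 0) of 8 genes in the 186 Mfap4 cells, grouped by summed Reln and Lrat UMIs (x; 11, 36 and 139 cells), with exact 95% Poisson intervals; dashed lines mark the 6240 cells with a sum of 0. Serpinf1, Dpt and Igfbp4 are lower and Lhx2 and Colec11 higher in the cells with 5 or more, while Col1a1 and Acta2 are high in every range.

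Most of the chosen cells fell into 1 cluster. Cluster 12 held 192 cells, of which 116 were chosen cells (13 Clec3b/Pi16 and 103 Mfap4 cells), 62 had a sum of 1 to 4 and 14 a sum of 0. It thus took 58% of the chosen cells, and 60% and 58.5% at a coarser and a finer clustering. The other Mfap4 cells were spread over 8 further clusters, 33 of them in cluster 4, and 4 clusters held none. Its median Reln and Lrat sum was 5 UMIs per cell, the lowest of the 13 clusters.

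The leading genes of cluster 12 mixed both groups of chosen cells. Its 13 Clec3b/Pi16 cells gave 99.4% of its Ly6c1 and Pi16 UMIs, 98.6% of its Mfap5 UMIs and 98.3% of its Clec3b UMIs, but only 12.3% of its Serpinf1 and 10.0% of its Sfrp1 UMIs. Without them the cluster was led by Igfbp2, Serpinf1, Pcolce2, Sfrp1, Mgp, Pdlim3, S100a16, Ildr2, Mfap4 and Adamtsl1. It is given no cell type name here, since its Clec3b and Pi16 lay almost wholly in 13 of its 192 cells, which also gave 49.4% of its Cd34 UMIs.

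The 103 Mfap4 cells inside cluster 12 held Serpinf1 at 254 CPM (229.7 to 279) and the 83 outside it at 27.8 CPM (19.97 to 37.7). Sfrp1 was at 175 and 25.1 CPM, Dpt at 865 and 353 CPM, and Igfbp4 at 2140.4 and 736 CPM. Reln went the other way, at 169 CPM (149 to 190) inside and 442 CPM (409 to 478) outside. Cells were clustered by expression, with Reln and Lrat left out, and Serpinf1 and Sfrp1 were among the leading genes of cluster 12. The contrasts of genes other than Reln thus describe the clustering. The 14 cells of cluster 12 that had none of the 3 transcripts held Serpinf1 at 33.8 CPM, Pcolce2 at 67.5 CPM, Igfbp4 at 1024 CPM and Acta2 at 3922 CPM.

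**Figure D4:**
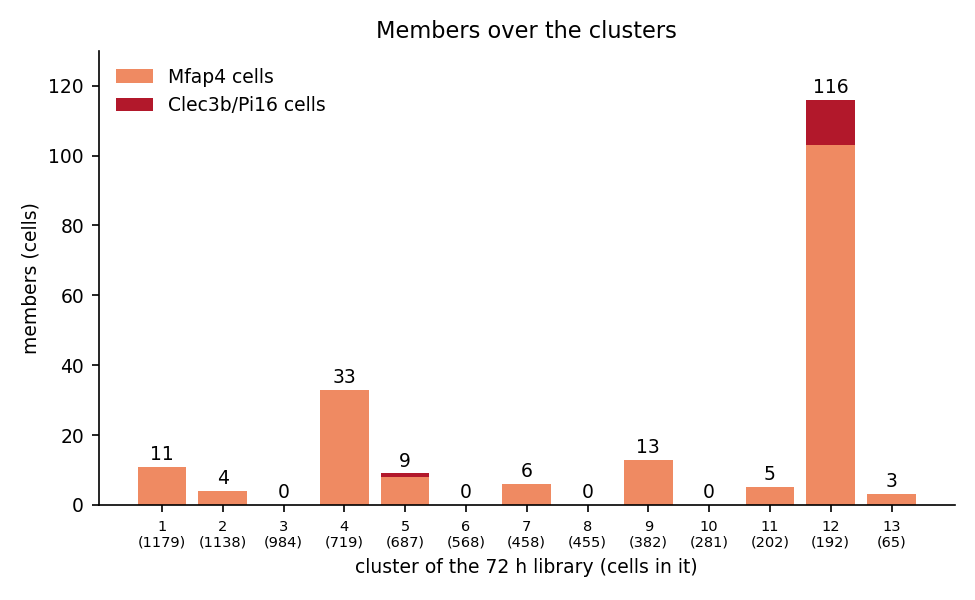
Number of chosen cells (y) in each of the 13 clusters of the 72 h library (x, with the cells of each cluster in brackets), split into Mfap4 cells and Clec3b/Pi16 cells. Cluster 12, with 192 cells, holds 116 of the 200, and 13 of the 14 Clec3b/Pi16 cells.

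Transcripts of proliferation differed between the Mfap4 cells inside and outside cluster 12. Mki67, a marker of cycling cells, was at 77.4 CPM (63.8 to 92.9) there and at 4.95 CPM (2.14 to 9.75) inside the cluster. Over all Mfap4 cells it was at 39.5 CPM, near the 51.4 CPM of the cells without the 3 transcripts, and none of the 8 compared cell cycle genes differed 2-fold from those cells. Against the cluster 4 cells, where Mki67 was at 5.003 CPM, 7 of the 8 were higher in the Mfap4 cells and the other, Cdk1, was at 61.2 against 32.6 CPM. Clusters 7, 9 and 11, with 6, 13 and 5 Mfap4 cells, had cell cycle genes among their leading genes. Since cells were clustered by expression, the contrasts of these genes with cluster 12 or cluster 4 describe the clustering. The 14 Clec3b/Pi16 cells held no Mki67 UMI, where 3 counts in the 156463 UMIs of these cells would make 19.2 CPM.

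The Clec3b/Pi16 cells were set against the Mfap4 cells next, with a minimum of 100 CPM because so few cells were summed. Of 1703 genes, 215 were at least 2-fold higher in the Clec3b/Pi16 cells (12.6%) and 217 lower (12.7%). The FB list had 13 of 16 genes higher and 1, Lum, lower. The 2 groups had been divided on the FB genes Clec3b and Pi16, so the counts of this comparison describe the division. Cd34 was at 844 CPM (706 to 1001) against 45.0 CPM (37.8 to 53.1), Gsn at 3694 against 304 CPM, Igfbp6 at 1080.1 against 9.06 CPM, and Mfap5, a microfibril component, at 2224 against 1.62 CPM. Cd34 was seen in 13 of the 14 cells, Mfap5 in 12, and Igfbp6, Dpt and Gsn in all 14.

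In the same comparison the HSC list had 0 of 13 genes higher and 9 lower, and all 3 smooth muscle genes compared were lower. Acta2 stood at 134 CPM (83.1 to 205) in the Clec3b/Pi16 cells, 18.4-fold below the Mfap4 cells, and Col1a1 at 1988 against 5683 CPM. Col3a1 was nearly level, at 6621 against 7918 CPM. The transcription factors Ebf1 at 588 against 5.18 CPM, Osr1 at 326 against 7.44 CPM and Klf4 at 722 against 80.3 CPM were higher, while Lhx2, Hand2 and Nr2f2 were lower.

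**Figure D5:**
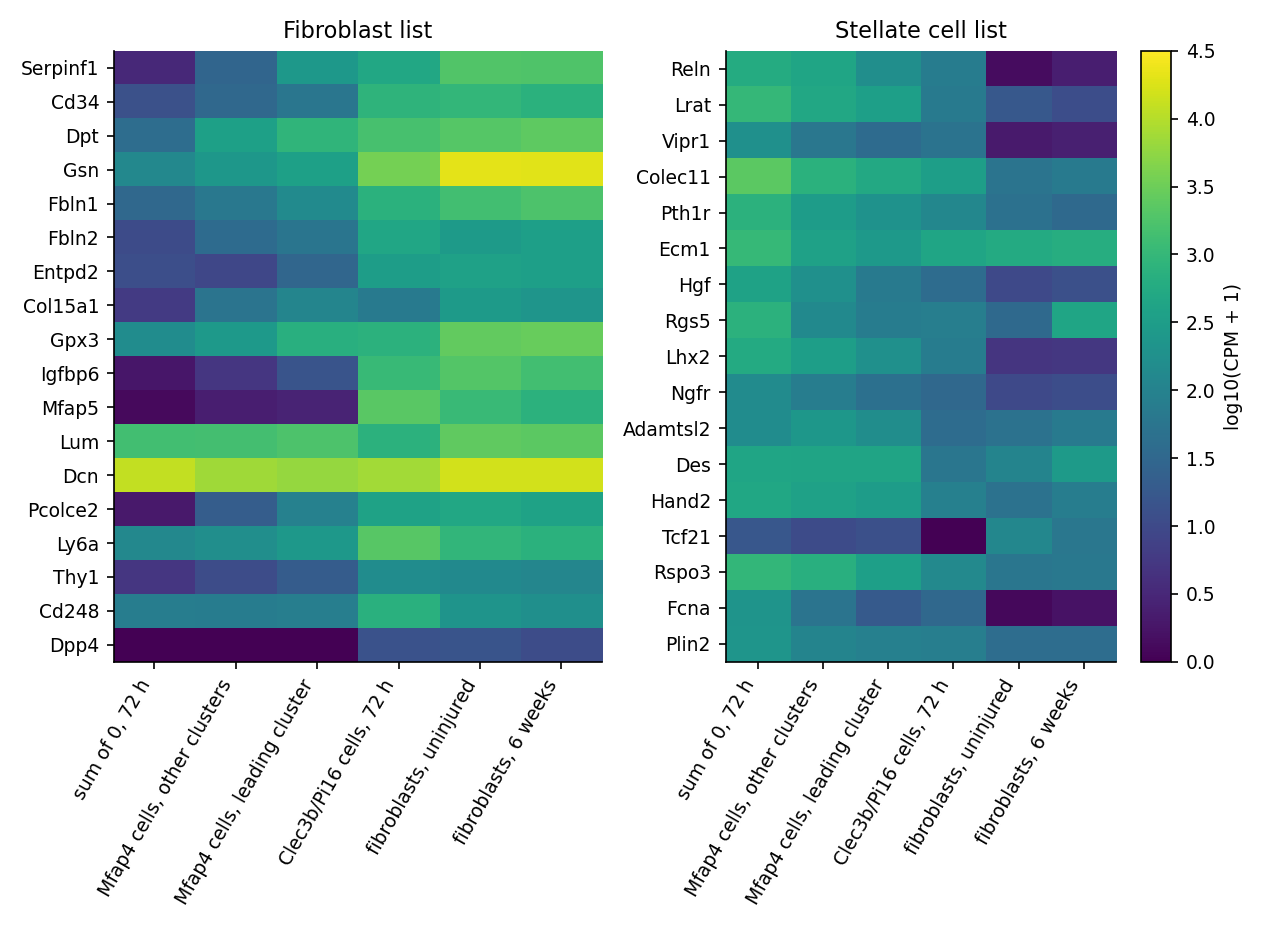
Level of each of 18 fibroblast genes and 17 stellate cell genes (rows; colour, log10 of CPM + 1) in 4 populations of the 72 h library and in fibroblasts of uninjured and 6 week liver (columns). Cd34, Mfap5 and Igfbp6 are high in the Clec3b/Pi16 cells and in both fibroblast populations and low in the Mfap4 cells, while Serpinf1, Dpt and Pcolce2 are also high in the Mfap4 cells of the leading cluster, cluster 12.

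The FB list was divided between genes that differed 2-fold between the Clec3b/Pi16 cells and uninjured FBs and genes that did not. Cd34 was at 844 against 941 CPM and Dpt at 1572 against 2053 CPM, both of them genes on which those FBs had been selected. Of genes not so used, Pcolce2 was at 396 against 489 CPM, Ebf1 at 588 against 482 CPM and Osr1 at 326 against 250.1 CPM. Of 1758 genes 152 were at least 2-fold higher (8.65%) and 236 lower (13.4%). Injury, isolation and library all differ between these populations and cannot be told apart. The FB list, with Cd34 and Dpt left out, had 2 of 15 genes higher, Ly6a and Cd248, 7 within 2-fold, and 6 lower, namely Serpinf1, Gsn, Col15a1, Gpx3, Lum and Dcn. Gsn, the most abundant gene of the list in uninjured FBs, was 5.57-fold lower, and Mgp 5.60-fold lower at 901 against 5049 CPM. Mgp had UMIs in 7 of the 14 cells, with 76 of the 141 in 1 cell, and was at 458 CPM (353 to 584) without that cell.

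Of the 9 genes listed for the Pi16 type of FB, 5 could be compared between the 14 cells and uninjured FBs. Ly6c1, Anxa3, Cd55 and Sema3c were higher in the 14 cells and Ackr3 was lower. The other genes, Dpp4, Wnt2, Limch1 and Efhd1, stayed below the CPM minimum. Dpp4 had 2 UMIs in the 14 cells, at 12.8 CPM against 13.9 CPM. The 14 cells had been chosen on Clec3b and Pi16, so high levels of genes of this type may follow from that choice. Ly6c1 was at 1099 CPM (941 to 1276) against 192 CPM (186 to 198). Genes of other portal FB states were low, with 0 of 5 higher and 4 lower, among them Penk, the enkephalin precursor, at 51.1 against 444 CPM. Smoc2 was at 147 against 945 CPM. Small leucine-rich proteoglycans had 0 of 9 higher and 6 lower, with Aspn at 166 against 768 CPM.

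Some of the higher genes rested on 1 cell. By ratio the 10 highest, of at least 200 CPM, were Saa3, Dmkn, Ccl7, Mt2, Ccl2, Timp1, Sbsn, Plvap, Plac8 and Colec11. All 44 Saa3 UMIs, 853 of the 1091 Mt2 UMIs and 215 of the 270 Ccl7 UMIs came from the same cell. That cell also held 72 of the 151 Ccl2 UMIs and 87 of the 143 Cxcl1 UMIs, and Ccl2 was seen in 6 of the 14 cells. Of 8 compared chemokine and cytokine genes 6 were higher, namely Ccl2, Ccl7, Cxcl1, Cxcl10, Il33 and Csf1, and 1, Cxcl12, was lower, and of the 16 Cxcl10 UMIs 13 lay in the cell scored as a doublet. Without the first cell Mt2, a metallothionein, was at 1718 CPM against 394 CPM in uninjured FBs, and Ccl7, a monocyte chemokine, at 397 against 78.1 CPM. The HSC list had 3 of 7 genes higher, Colec11, Pth1r and Rspo3, and 1 lower. Those 3 genes had their most UMIs in the cell that scored as a doublet, and Colec11 was at 76.9 CPM without it, against 52.9 CPM. Plvap also had 18 of its 32 UMIs in that cell and was at 97.9 CPM without it, below the minimum of 200 CPM.

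Other higher genes were shared by most of the 14 cells. Fbn1, which encodes the microfibril protein fibrillin, was at 1419 CPM (1238 to 1618) against 292 CPM (285 to 299), and still at 1333 CPM without its richest cell. Fn1, fibronectin, was at 1329 CPM against 360 CPM with UMIs in all 14 cells, and Il33, an alarmin cytokine, at 646 against 154 CPM with UMIs in 13. Timp1, a metalloproteinase inhibitor, was at 729 against 67.5 CPM, and at 372 CPM without its richest cell, the shallowest of the 14, which held 57 of its 114 UMIs.

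Lower in the 14 cells were Thbs4, Igfbp3, Rcan2, Myoc, Hspa1a, Cxcl14, Tsc22d3, Inmt, Pdgfrl and Txnip. Rcan2, a calcineurin regulator, was at 31.96 CPM (10.4 to 74.6) against 841 CPM. Cxcl14 had no UMI in the 14 cells and was 14.2-fold lower with its zero set at 3 counts. The lower end of its interval was 11.6-fold. Thbs4, with 1 UMI, was 31.5-fold lower, with an interval of 5.65 to 1245. Immediate early genes, which are known to respond to tissue digestion, had 0 of 9 higher and 6 lower, with Fos at 1009.8 CPM against 4497 CPM, and their part in the other differences was not tested.

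Uninjured FBs were not all Pi16 cells, so the 14 cells were also set against the 3555 cells of the uninjured PF library that met the same thresholds. There 155 of 1753 genes were higher (8.84%) and 232 lower (13.2%), and the FB list again had 2 higher and 6 lower of 15. The list of the Pi16 type again had 4 higher and 1 lower of 5. Ly6c1 was at 210 CPM and Fbn1 at 307 CPM in those cells, below the 14 cells as before. Gsn at 21359 CPM and Mgp at 5093 CPM were above them.

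All 200 chosen cells together were then set against uninjured FBs, with 577 of 6312 genes higher (9.14%) and 858 lower (13.6%). The FB list had 0 of 15 higher and 13 lower, and the HSC list 15 of 18 higher and 1 lower. The 10 largest ratios upward were those of Sectm1a, Ube2c, Reln, Bco1, Top2a, Ankrd55, Cdca3, Colec10, Gdf2 and Hist1h2ap. Ube2c, Top2a, Cdca3 and Hist1h2ap serve the cell cycle, and Bco1 cleaves carotenoids. Downward, they were Thbs4, C7, Pthlh, Myoc, Angptl1, Penk, Angptl7, Apod, Ces1d and Dkk2, which had between 0 and 8 UMIs each in the 200 cells. Acta2 was at 2354 CPM against 514 CPM and Col1a1 at 5505 against 1459.5 CPM.

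Over 4407 genes of at least 50 CPM in some population, the profile of the Clec3b/Pi16 cells had a Spearman correlation of 0.784 with uninjured FBs, 0.704 with the Mfap4 cells and 0.649 with the cells without the 3 transcripts. That of the Mfap4 cells was 0.947 with the cluster 4 cells, 0.920 with the cells without the 3 transcripts and 0.700 with uninjured FBs. These are descriptions across genes, which are not independent, and populations of 1 library share its free RNA.

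Of the markers of other cell types, those of smooth muscle were the most abundant in the Mfap4 cells, and single genes of the mesothelial, leucocyte and hepatocyte lists were also higher there, at low levels. The smooth muscle list summed to 4110 CPM in the Mfap4 cells, 256 CPM in the Clec3b/Pi16 cells and 1782 CPM in the cells without the 3 transcripts, with Acta2 its most abundant gene in all 3. In the Mfap4 cells 2 of its 4 compared genes were higher than in the cells without the 3 transcripts, Acta2 and the smooth muscle myosin gene Myh11, the latter at 55.7 CPM (47.7 to 64.6) against 20.5 CPM. Its gene Pln had no UMI in the Mfap4 cells, and Actg2, a smooth muscle actin outside the list that was picked after its value was seen, was at 126 against 10.01 CPM. The cluster 4 cells held the list at 3630 CPM, with 1 of its 4 compared genes higher in the Mfap4 cells and 0 lower. Actg2 was at 18.0 CPM in the cluster 4 cells, a ratio of 7.01. The part of smooth muscle RNA in the other differences of the Mfap4 cells was not tested. The mesothelial list summed to 74.1 CPM in the Mfap4 cells, 44.7 CPM in the Clec3b/Pi16 cells and 34.1 CPM in the cells without the 3 transcripts, nearly all of it in the Mfap4 cells Wt1, which was 2.48-fold higher there than in the cells without the 3 transcripts, with Msln, Upk3b, Lrrn4 and Krt19 at 0 in all 3. The leucocyte list summed to 61.2, 6.39 and 10.4 CPM, led by the lysozyme gene Lyz2 in the Mfap4 cells, where it was 6.65-fold higher, with Ptprc at 0 in all 3. The hepatocyte list summed to 113, 25.6 and 41.7 CPM, and Cyp2e1, the cytochrome that activates CCl4, made up 100.3 CPM of the first, in 70 of 186 cells, and was 15.8-fold higher. The endothelial list summed to 5.50, 25.6 and 32.3 CPM, the cholangiocyte list to 5.50, 6.39 and 6.21 CPM and the Schwann cell list to 1.29, 6.39 and 2.04 CPM. The part of Wt1, Lyz2 and Cyp2e1 RNA in the other differences of the Mfap4 cells was not tested.

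Cells meeting the rule were rare in the uninjured HSC library and were the majority of the uninjured PF library. They were 1 of 6850 cells (0.0146%) and 3960 of 5737 cells (69.0%), and after 6 weeks of CCl4 60 of 5454 cells (1.10%) by the HSC isolation and 2747 of 5648 cells (48.6%) by the PF isolation. The libraries differ in depth, with median UMIs per cell of 6718 and 4300 in uninjured liver, 11344 at 72 h, and 9893 and 5097.5 at 6 weeks. Set to the same 4.41 UMIs per 10000, which is what 5 UMIs make at the median depth of the 72 h library, the rule found 2, 138, 63, 4584 and 3707 cells in the order uninjured HSC, 72 h HSC, 6 week HSC, uninjured PF and 6 week PF.

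Mfap4 itself, summed over all cells, was at 0.302 CPM (0.165 to 0.506) in the uninjured HSC library, 37.1 CPM (35.8 to 38.4) at 72 h and 20.3 CPM in the 6 week HSC library. The PF libraries held 1415 and 1149 CPM. Thinned to 2000 UMIs, 0.0445% of cells had a Mfap4 UMI in the uninjured HSC library, 4.61% at 72 h and 2.57% at 6 weeks, against 55.8% and 48.6% in the PF libraries. With 1 pool of mice for each, the difference between the HSC libraries has no replicate check. Dpt, which the FB selection used, gave 84.1% of the UMIs behind that selection in the 72 h library, where 606 cells met it, and 156 of the 200 chosen cells were among them.

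The 60 cells of the 6 week HSC library were divided by the same threshold, with the genes only partly in the order seen at 72 h. In 4 of them Clec3b and Pi16 made 5 or more UMIs, and those cells had 2 to 4 Reln and Lrat UMIs each and Serpinf1 at 399.6 CPM (241 to 624). They had no Acta2 UMI, where 3 counts in their 47547 UMIs would make 63.1 CPM. The other 56 had a median of 10.5 Reln and Lrat UMIs, Reln at 455 CPM, Lrat at 655 CPM, Serpinf1 at 66.7 CPM and Acta2 at 271 CPM. Col1a1 was at 6120.3 CPM (5437 to 6865) in the 4 cells and 3431 CPM (3291 to 3575) in the 56, the reverse of its order at 72 h. In the 5025 cells of that library without the 3 transcripts, Reln was at 1313 CPM, Lrat at 1565 CPM and Serpinf1 at 6.60 CPM, with a median of 26 Reln and Lrat UMIs. As at 72 h, the cells chosen through Mfap4 held Reln between those cells and the 2909 FBs of the 6 week PF library, which were at 1.35 CPM.

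Barcodes were shared between the 72 h library and each of the others, with 74 in common with the uninjured HSC, 53 with the 6 week HSC, 48 with the uninjured PF and 74 with the 6 week PF library. Of the 200 chosen cells, 4 had a barcode found in another library.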

How the data were processed

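Single cells of 5 libraries were profiled by 10X Genomics 3' sequencing. The authors aligned reads with Cell Ranger 2.1.0 to mm10 (GRCm38) and made tables of raw UMIs for each gene in each called cell, with no normalisation. These counts were used as deposited; 6 plates of the same series were not used here. Cells with at least 300 genes and at most 30% mitochondrial UMIs were kept. Counts were summed over groups of cells and expressed as CPM, with exact 95% Poisson intervals for levels, exact conditional binomial intervals for ratios and exact Clopper-Pearson intervals for shares. A zero was bounded by 3 counts per group. Genes were counted as higher or lower at 2-fold or more with at least 20 CPM in the higher group (100 CPM where the 14 Clec3b/Pi16 cells were compared). No p-value was computed, because each condition and isolation has 1 library.

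Cells were clustered with 2000 variable genes, 10 principal components, 30 neighbours and the Leiden algorithm (leidenalg 0.10.2, resolution 0.8). Doublets were scored against simulated pairs and called at 0.8% per 1000 cells. Thinning drew 2000 UMIs per cell; of the uninjured FBs 147 cells were shallower and left out. The comparison of ratios was tested on simulated data.

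Genes named by rule were the 10 largest ratios each way among genes of at least 50 CPM in the higher group, leaving out genes that chose the cells; for the 14 cells against uninjured FBs the same rule ran at 200 CPM. Some genes of the rule and of the lists are not reported here by name. The cells and the lists were chosen with earlier results of these data known. The division into Clec3b/Pi16 and Mfap4 cells, and every comparison of either with another population or within it, were chosen after the values were seen. Coordinates are those of GENCODE vM21 (GRCm38).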

Additional observations from a re-analysis of the deposited data

How the results depend on the processing

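With 1 library per condition and isolation, neither replicate error nor a left-out replicate could be computed. No paired analysis was possible because each group has 1 library and no test was run. Depth limits the smallest groups, since a gene with no UMI could lie at up to 19.2 CPM in the 14 Clec3b/Pi16 cells (156463 UMIs) and up to 63.1 CPM in the 4 such cells of the 6 week HSC library (47547 UMIs). Of the alternative values, 44 stayed within counting error or within 1.5 times of the count of genes, and 29 did not. The share of chosen cells was 4.61% at 3 UMIs, 1.094% at 10, 1.888% on UMIs per 10000 and 0.1915% without Mfap4. Reln was then at 346.1, 211.9, 266.1 and 76.7 CPM, and Lrat at 481.1 CPM at 3 UMIs and 70.3 CPM without Mfap4. The last values are also those of the 14 Clec3b/Pi16 cells alone, a split added after seeing the data, since dropping Mfap4 leaves those cells. The share with a Reln UMI was 82.2% at 3 UMIs, 35.71% without Mfap4 and 37% after thinning, and that with an Lrat UMI 21.43% without Mfap4 and 46.5% after thinning. Against the cells with a sum of 0, 112 genes were higher and 139 lower at 50 CPM, 1950 and 802 with no CPM minimum, and 123 and 81 at 3-fold. Against uninjured FBs the counts were 330 and 465, 1520 and 2455, and 311 and 431. Fewer or more genes are compared at another minimum by construction. Trimmed-mean scaling gave 216 and 225, and 662 and 763.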
